A study of Arabidopsis thaliana with 6 samples.

Results

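Introns of genes that have a single intron were compared between wild-type *Arabidopsis thaliana* (Col) and the splicing mutant *brr2a*-2. The members were the 1600 rows of the intron count table, of 117457 rows in all, that were the only row of their gene, held at least 10 counts over the 6 libraries and belonged to a gene with at least 50 counts. Genes of chromosome 3 were left out because intron and gene counts did not match by name there: the Spearman correlation of both counts across genes was 0.32 on chromosome 3 and between 0.86 and 0.88 on the other chromosomes. The members lay on chromosome 1 (544), chromosome 2 (336), chromosome 4 (262) and chromosome 5 (458). Of the 3415 genes with a single row on these chromosomes, 980 had no intron count, 678 had 1 to 9, and 157 of the 1757 others had too few gene counts. The measurement was the intron count of a library in percent of the count of the gene in the same library.

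The groups were 3 libraries of wild type of the Col-0 ecotype and 3 libraries of *brr2a*-2 (labelled cao), which carries a missense mutation in the spliceosomal helicase BRR2a and is a viable allele of a gene whose full loss is lethal. All plants were grown in short days, were 15 days old and were harvested 1 h before dark. The labels name rosette leaves, whereas the study describes seedlings. RNA was depleted of ribosomal RNA and not selected for poly(A) tails, so unspliced precursors were sequenced as well. The labels call the libraries biological replicates.

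An intron is removed in a pair of steps by the spliceosome, which recognizes a donor site at the start of the intron, usually beginning with GT, a branch point, and an acceptor site that ends with AG. BRR2 unwinds the paired U4 and U6 RNAs, a step that activates the spliceosome before the first cut. A gene with a single intron gives a simple readout where no other intron shares its transcript. In plants such genes include antenna proteins, B-box factors, dehydrins and glycine-rich RNA-binding proteins. Here the single intron is that of the first isoform. Of the 1558 members with known coordinates, 448 belonged to genes with another annotated isoform of different introns. Reads inside an intron can also come from another isoform, from an overlapping gene or from an RNA encoded within the intron.

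The libraries held 18692830 to 29830638 gene counts, and intron counts came to between 2.76% and 3.57% of gene counts in Col and between 3.96% and 4.50% in *brr2a*-2. Leaf genes were abundant in all libraries (RBCS1A reached 1537 to 3426 CPM (counts scaled to a fixed library total) in Col and 2325 to 2548 in *brr2a*-2). Markers of root and flower did not exceed 3.40 CPM, and the seed gene CRA1 ranged from 0.186 to 33.7. BRR2a itself was at 128 to 156 CPM in Col and 155 to 174 in *brr2a*-2, which does not check the genotype because the mutation is a missense change. The members held 319378 intron counts and 6162724 gene counts, with a median of 57 counts per intron. The 10 introns of most counts held 38.5% of the intron counts.

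Introns that stand for the results below are printed first, from the start to the end of the intron in the sense of the gene, with the first 6 bases, the donor side, and the last 3 bases, the acceptor side, in capitals. The first 4 belong to the introns with the smallest p toward higher retention that lie between coding exons. Of these, OTP51 entered the test only through *brr2a*-2, so its p carries no weight as a test. The next pair belong to genes for the major antenna protein of photosystem II. The last is an annotated intron of 23 bp from the lower side, which is exon in another isoform. Sequences are from RefSeq TAIR10.1. They lie at chr4:15574024-15574091 on the minus strand (PDE334), chr2:6890615-6890691 on the minus strand (OTP51), chr5:7006320-7006398 on the minus strand (AT5G20700), chr1:23128814-23129104 on the plus strand (AT1G62480), chr2:1824101-1824185 on the minus strand (LHCB2.1), chr2:1800088-1800183 on the minus strand (LHCB2.2) and chr1:26508978-26509000 on the plus strand (AT1G70360).
PDE334: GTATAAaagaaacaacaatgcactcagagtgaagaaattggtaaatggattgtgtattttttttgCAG
OTP51: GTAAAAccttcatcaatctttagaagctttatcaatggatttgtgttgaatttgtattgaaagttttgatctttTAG
AT5G20700: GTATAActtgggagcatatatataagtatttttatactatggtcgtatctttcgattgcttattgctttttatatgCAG
AT1G62480: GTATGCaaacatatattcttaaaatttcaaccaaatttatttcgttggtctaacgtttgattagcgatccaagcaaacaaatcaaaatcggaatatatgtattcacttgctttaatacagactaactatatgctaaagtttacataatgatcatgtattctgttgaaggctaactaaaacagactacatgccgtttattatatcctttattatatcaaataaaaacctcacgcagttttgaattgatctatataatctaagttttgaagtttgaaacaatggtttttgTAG
LHCB2.1: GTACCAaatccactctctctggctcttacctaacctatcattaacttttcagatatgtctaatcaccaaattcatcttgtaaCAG
LHCB2.2: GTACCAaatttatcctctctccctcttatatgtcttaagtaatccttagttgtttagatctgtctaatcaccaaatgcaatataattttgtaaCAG
AT1G70360: GTTGTAgtttatggatctctTAG
The introns of PDE334 and AT5G20700 begin with the same 6 bases, GTATAA, which 1.22% of the members with coordinates shared. The most frequent start, GTAAGT, was found in 8.47% of them and in 9.56% of the introns of genes with 2 to 14 introns.

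The typical intron of a single-intron gene took a larger share of the counts of its gene in *brr2a*-2 than in Col. The median over the 1600 introns was 4.42%, 3.58% and 3.34% in Col, against 6.25%, 5.26% and 6.22% in *brr2a*-2. All mutant libraries were above all wild-type libraries, with 3.78% ± 0.567 in Col and 5.91% ± 0.561 in *brr2a*-2 (SD, n = 3 each), a difference of 0.65 on the log2 scale. The two-sided exact permutation test gave p = 0.1, which is the smallest value that 3 against 3 libraries allow. Scaled to length, intron counts per intron base were a median 18.6% of gene counts per exon base in Col and 29.3% in *brr2a*-2.

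The pooled share gives the deepest introns the most weight, and it did not show this difference. Summed over all members, intron counts were 5.89%, 5.15% and 4.95% of gene counts in Col and 5.11%, 4.45% and 5.13% in *brr2a*-2. The groups overlapped, and the difference of -0.44 percentage points did not exceed the spread (exact permutation test, two-sided p = 0.4). Without the 10 introns of most counts the shares were 3.54%, 2.43% and 2.58% in Col and 4.39%, 3.64% and 4.08% in *brr2a*-2, so that the groups separated in the other direction, by 1.19 percentage points (p = 0.1, exact permutation test). AT7SL-1, described below, alone held 22.2% of all intron counts of the members.

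**Figure D1:**
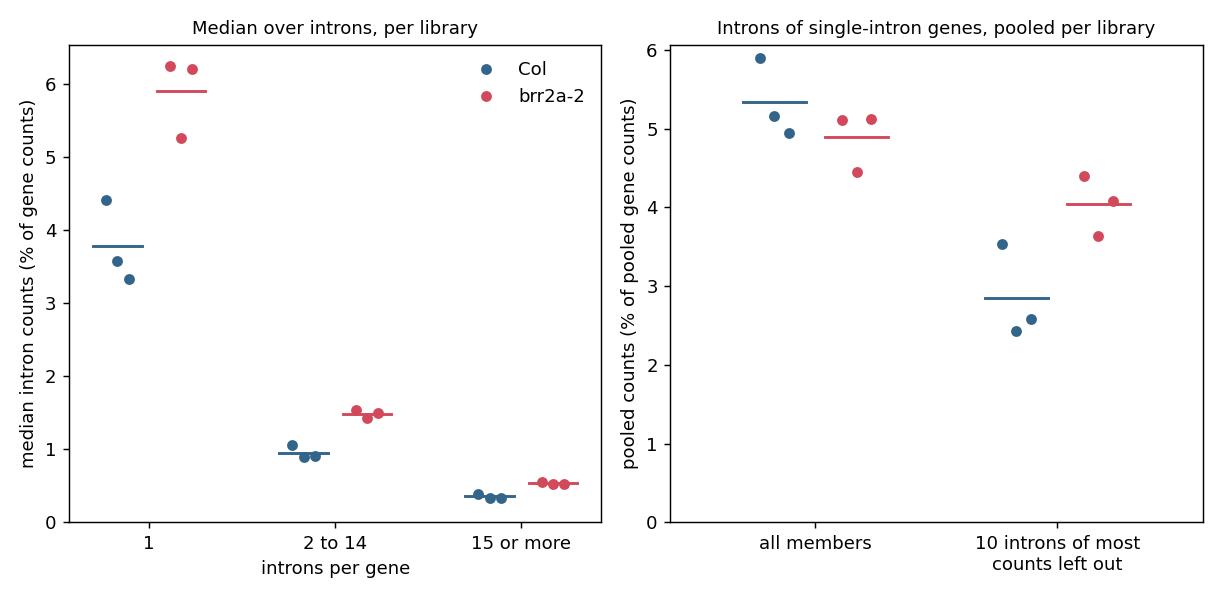
Intron counts in percent of gene counts, 1 point per library and a bar at the mean of the 3 libraries of a genotype. Left, the median over introns of genes with 1, 2 to 14 and 15 or more introns, where all *brr2a*-2 libraries lie above all Col libraries. Right, pooled counts of the introns of single-intron genes, with overlapping genotypes over all members (Col 5.33%, *brr2a*-2 4.90%) and separate ones without the 10 introns of most counts (Col 2.85%, *brr2a*-2 4.04%).

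With equal weight for each intron, no difference was detected between single-intron genes and other genes in how far the median moved. The log2 ratio of the class median to that of 40141 introns of genes with 2 to 14 introns was 1.98 in Col and 1.98 in *brr2a*-2 (difference 0.0019, exact permutation test, two-sided p = 0.9), and for 11504 introns of genes with 15 or more it was 3.40 and 3.47 (difference 0.07, p = 0.4). The pooled share of the class fell behind both, by 0.63 and 0.59 on the log2 scale (exact permutation test, p = 0.1 each). Without the 10 introns of most counts in each class these differences were -0.03 and 0.02, with overlapping libraries.

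Intron by intron, 408 of the 1600 members (25.5%) had a higher share in every *brr2a*-2 library than in every Col library, and 14 (0.875%) a lower share in every one. Over all 53245 introns of the 4 chromosomes with the same minimum counts, 21.8% were separated upward and 1.45% downward. Among the 408 the mutant share was a median 2.11 times the wild-type share, with quartiles of 1.75 and 2.90. Of the 408, 118 had fewer than 50 intron counts, as had 724 of all members, and 2 had no count in Col. The minimum of 10 counts could be reached through the mutant libraries alone. The share of separated members grew with depth: it was 12.2% among the 400 members with the fewest gene counts and 39.0% among the 400 with the most.

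**Figure D2:**
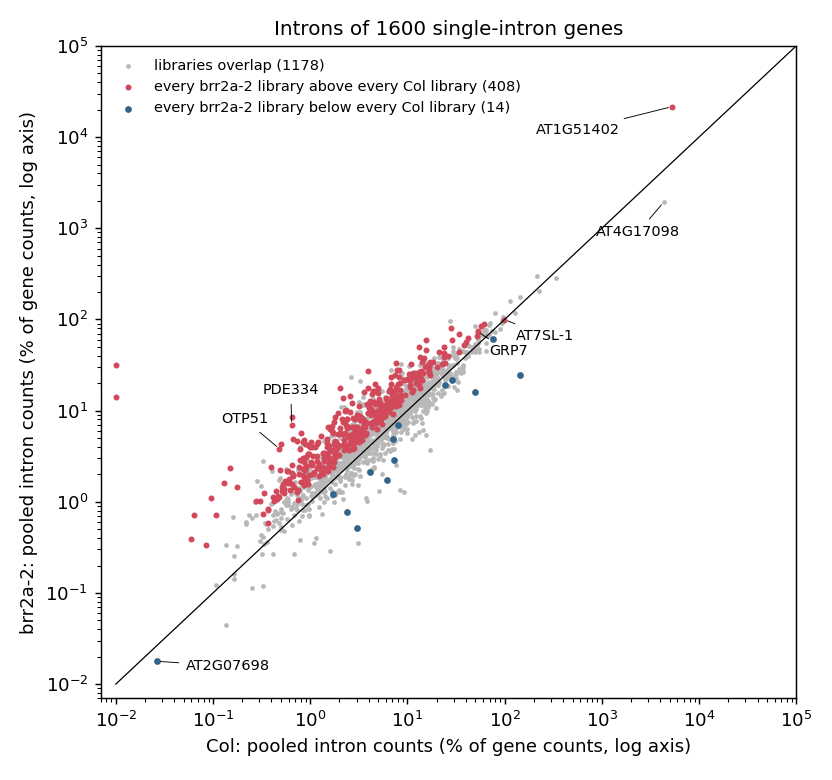
Pooled intron counts in percent of gene counts in Col (x axis) and *brr2a*-2 (y axis) for the 1600 members, both on log axes, with the line of equality. Red points are the 408 introns with a higher share in every *brr2a*-2 library, blue points the 14 with a lower share in every one, grey points the others, with overlapping libraries; 2 introns without a count in Col are drawn at 0.01%.

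For single introns edgeR's quasi-likelihood test was used, with the fold change of the gene taken out of the intron change and Benjamini-Hochberg adjustment across the 17214 introns tested. Of the members, 773 were deep enough for the test. An intron was called where the adjusted p was below 0.05 and the log2 fold change was 1 or more in either direction. With library sizes from the intron table, 1 member was called higher, the intron of PDE334, and 0 were called lower, against 0.192% of all introns called higher and 0.0813% called lower. At an unadjusted p under 0.05 there were 25 members higher and 31 lower (all tested introns, 914 and 1263), and DESeq2 called 2 higher and 1 lower (0.476% and 0.290% of all tested introns). Most calls in the whole table came from chromosome 3, where names and counts do not match: on the other chromosomes 0.0362% of the introns were called higher and 0.0145% lower in the same fit. With the rows of chromosome 3 left out, 0.00724% were called higher and no member was among them, since the adjusted p of PDE334 became 0.186 at an unchanged log2 fold change of 2.74.

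Library sizes from the intron table set the general rise of intron reads to near 0, and with them the median log2 fold change of the tested members was -0.11 (all tested introns, -0.12). With library sizes from the gene table, a scaling added after the data had been seen, the median was 0.54 (all tested introns, 0.53), a shift of 0.65 for the typical member, and log2 fold changes are given below on both scales. On this scale 22 members (2.85%) were called higher and 0 lower by edgeR's quasi-likelihood test, with 154 higher and 1 lower at an unadjusted p under 0.05 (all tested introns, 4009 and 132), against 3.94% of all introns tested called higher and 0.0755% lower. Over chromosomes 1, 2, 4 and 5 in the same fit these were 2.82% and 0.00724%, and the share of members called was near this background. Without the rows of chromosome 3 the calls dropped to 0.413% of introns and to 4 members (AT1G62480, OTP51, WTF1 and PDE334). The number of members called was 1 to 21 when a library was left out: 21 without Col 1, 7 without Col 2, 7 without Col 3, 1 without *brr2a*-2 1, 2 without *brr2a*-2 2 and 4 without *brr2a*-2 3. Of the 22, 5 (OTP51, WTF1, CLV1, AT2G43150 and AT5G43150) had no Col library at the minimum of 12.6 CPM and entered the test only through *brr2a*-2, so that they had to differ and their p-values carry no weight as tests.

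PDE334 (AT4G32260) encodes subunit b' of the membrane part of the chloroplast ATP synthase. Its 68 bp coding intron was covered by 53, 78 and 40 counts in Col, against 459, 508 and 167 in *brr2a*-2. These were 0.562%, 0.865% and 0.499% of the gene counts in Col and 6.69%, 8.23% and 4.99% in *brr2a*-2, with a wide gap between the genotypes. The log2 fold change was 2.74 (SE 0.47, adjusted p = 0.0271, edgeR's quasi-likelihood test) and 3.40 with gene table scaling (adjusted p = 0.00559). The adjusted p ranged from 0.0132 to 0.232 when a library was left out, and the call was lost without Col 2, Col 3, *brr2a*-2 1 or *brr2a*-2 2. With gene table scaling it was kept in each case, at 0.00329 to 0.0426.

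OTP51 (AT2G15820) is a pentatricopeptide repeat protein needed for the splicing of a chloroplast intron. Its 77 bp intron had 4, 3 and 3 counts in Col, against 21, 22 and 11 in *brr2a*-2. These made 0.582%, 0.365% and 0.531% of the gene counts in Col and 4.16%, 4.13% and 2.92% in *brr2a*-2, again without overlap. The intron passed the filter on low counts only through the mutant libraries, where it is high, so its log2 fold change of 2.39 (SE 0.51), or 3.04 with gene table scaling, is given as a description. WTF1 (AT4G01037), whose relative in maize acts in the splicing of chloroplast introns, had a 70 bp intron in its 5' UTR with 1, 0 and 2 counts in Col, against 18, 12 and 15 in *brr2a*-2. It also passed the filter only through *brr2a*-2, and its fitted log2 fold change of 3.35 (SE 0.80), or 3.99 with gene table scaling, rests on 3 counts in Col and is a description as well.

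AT1G62480, annotated as a vacuolar calcium-binding protein, had 12, 6 and 14 counts over its 291 bp intron in Col and 178, 84 and 135 in *brr2a*-2. The gene itself was higher in the mutant, with a log2 fold change of 1.31, but the share still went from 1.33%, 0.558% and 0.798% to 6.67%, 3.38% and 4.24%. After the correction for the gene the log2 fold change of the intron was 1.92 (SE 0.46, adjusted p = 0.128 by edgeR's quasi-likelihood test), with gene table scaling 2.57 (adjusted p = 0.0176). The 79 bp intron of AT5G20700, from a family named for senescence, was at 0.338%, 0.673% and 0.489% in Col and at 2.08%, 2.28% and 2.35% in *brr2a*-2. Its log2 fold change was 1.54 (SE 0.47, adjusted p = 0.206) and 2.17 with gene table scaling (adjusted p = 0.0264). Neither intron overlapped between genotypes in its share.

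The introns of photosynthesis genes mostly took a higher share in *brr2a*-2. A word search of the annotation, made after the values had been seen and therefore given as a description, found 12 such members, and in 10 of them (83.3%) all libraries of *brr2a*-2 lay above all of Col, beside 21.8% of all introns, 25.5% of the members and 39.0% of the 400 members with the most gene counts. Of the 12, 11 were tested, and all 11 had a log2 fold change above 0 on both scales, except that PSB28 turned to -0.35 without Col 2. Of all 773 tested members, 314 were above 0 with intron table scaling and 661 with gene table scaling. They ranged from 0.28 to 2.74 with a median of 0.70, and from 0.92 to 3.40 with a median of 1.34 with gene table scaling. With intron table scaling PDE334 was called, with gene table scaling PSAF too, and with the gene count of each library as the offset 9 of the 11 were called, all but LHCB2.1 and PSB28, a setting that called 6.80% of all introns tested. The 11 tested genes had 1473 to 206883 gene counts, and the introns of the 12 took small shares, with library medians of 0.623%, 0.827% and 0.908% in Col and 2.30%, 2.92% and 2.05% in *brr2a*-2.

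PSAF (AT1G31330), the plastocyanin-docking subunit of photosystem I, had 281, 330 and 304 counts over its 263 bp intron in Col and 726, 855 and 513 in *brr2a*-2. The share was 0.685%, 0.808% and 0.792% in Col and 2.18%, 3.09% and 2.00% in *brr2a*-2. The genotypes were far apart, and the log2 fold change was 1.00 (SE 0.38, adjusted p = 0.303 by edgeR's quasi-likelihood test) or 1.64 with gene table scaling (adjusted p = 0.0370). PSAL, another subunit of photosystem I, went from 0.500%, 0.381% and 0.757% to 1.52%, 1.34% and 1.3%. In the 5' UTR intron of AT2G26500, which encodes the petM subunit of the cytochrome b6f complex, the share was 1.36%, 2.85% and 3.26% in Col and 7.71%, 9.88% and 6.57% in *brr2a*-2. PSBW and the PsbP family gene AT2G28605, both of photosystem II, were likewise separated, whereas for PSB28 a single Col library (1.34%) was above the mutant libraries (0.969% to 1.13%).

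Of 12 antenna genes of photosystem II fixed as a list, 5 were members, and 4 of these were separated upward (39.0% among the 400 members with the most gene counts). LHCB2.1 and LHCB2.2 encode nearly the same protein of the trimeric antenna, so their reads may be split between them, but their introns differ in sequence (85 and 96 bp, printed above). The intron of LHCB2.1 had 6, 94 and 42 counts in Col, against 278, 301 and 173 in *brr2a*-2, or 0.0924%, 0.772% and 0.602% against 1.78%, 2.02% and 1.2% of the gene counts. That of LHCB2.2 was at 0.428%, 0.846% and 1.47% in Col and at 2.41%, 2.76% and 2.09% in *brr2a*-2. The spread between the Col libraries was wide in both, the log2 fold changes were 0.81 (SE 0.69) and 0.65 (SE 0.51), and neither passed the test on either scale. LHCB6 and LHCB4.1, minor antenna proteins, had log2 fold changes of 0.37 and 0.53, with 1.01 and 1.19 by gene table scaling, and did not pass it either. With the gene count of each library as the offset, LHCB6 (1.01), LHCB4.1 (1.18) and LHCB2.2 (1.4) were called by edgeR's quasi-likelihood test, at adjusted p of 0.0419, 0.0308 and 0.0419. The intron of LHCB6 overlaps an exon of another gene, AT1G05207, and the part of that gene in its reads was not tested. LHCB4.3 was too rare to test, with 26 intron counts in all.

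**Figure D3:**
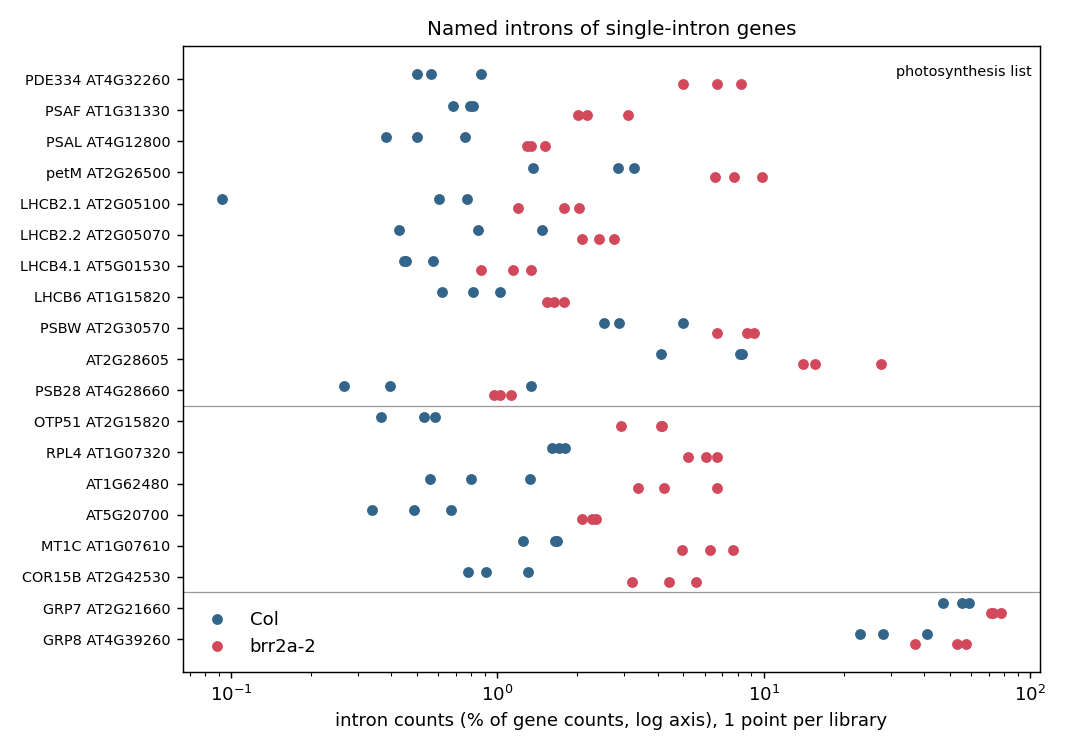
Intron counts in percent of gene counts (log axis) for 19 introns of single-intron genes, 1 point per library, Col in blue and *brr2a*-2 in red. The upper block holds the 11 tested introns of photosynthesis genes, the middle block other introns of the higher end, and the lower block the glycine-rich proteins GRP7 and GRP8; all but PSB28 and GRP8 are separated between genotypes.

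The other introns called with gene table scaling came from genes of varied roles. RPL4, a ribosomal protein of the chloroplast type, had an intron share of 1.79%, 1.71% and 1.6% in Col and 6.09%, 5.20% and 6.68% in *brr2a*-2, with a log2 fold change of 1.18 (SE 0.41) or 1.83 (adjusted p = 0.0326 by edgeR's quasi-likelihood test). The whole of its 151 bp intron is exon in another annotated isoform. The intron of MT1C, a metallothionein with close copies in the genome, stood at 1.64%, 1.24% and 1.67% and at 6.30%, 4.95% and 7.67%. Its log2 fold change was 1.31 (SE 0.49) or 1.96 (adjusted p = 0.0472). CLV1, the receptor kinase of the shoot meristem, had only 9, 5 and 2 counts in Col, against 18, 12 and 14 in *brr2a*-2, and is another of the 5 that entered the test only through the mutant. ABCI8, a protein of iron-sulfur cluster assembly in the chloroplast, had 11, 8 and 12 against 42, 27 and 45. In 21 of the 22 the share was separated upward, with AT2G41990 as the exception, beside 33.9% of all tested members. The 22 were picked for a higher intron value, so this count is a description. Their log2 fold changes ranged from 1.52 to 3.99 on that scale, or to 3.40 without those 5. Their median length was 125 bp, with AT4G38160 lacking coordinates, against 274 bp for all members with coordinates. This median includes those 5, at 77 bp (OTP51), 70 bp (WTF1), 79 bp (CLV1), 83 bp (AT2G43150) and 338 bp (AT5G43150), and is a description. In 17 of the 22 the log2 fold change of the gene was below 0. Because the gene change is taken out of the intron change, a lower gene row raises the intron value. The 17 are therefore no result about these genes.

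COR15B was the only cold-regulated gene among the calls with gene table scaling. It encodes a chloroplast protein of cold acclimation with a close copy, COR15A. Its intron had 103, 41 and 8 counts in Col, against 20, 32 and 28 in *brr2a*-2, while the gene had 13301, 3152 and 880 counts in Col, against 622, 725 and 503 in *brr2a*-2. The share was 0.774%, 1.3% and 0.909% in Col and 3.22%, 4.41% and 5.57% in *brr2a*-2. The log2 fold change of 1.59 (SE 0.57), or 2.23 by gene table scaling (adjusted p = 0.0443, edgeR's quasi-likelihood test), was set against a log2 fold change of -2.70 in the gene, and without the correction for the gene the intron was at -1.10. Col 1 stood apart in this group, with RAB18 at 8772 gene counts against 306 and 495 in the other Col libraries and ERD10 at 14879 against 2766 and 2678; the part of this in the result was not tested. Of the dehydrins, COR47, ERD10 and ERD14 overlapped between genotypes, and RAB18, too rare to test, was separated upward at 0.422%, 0.654% and 0.808% against 1.32%, 1.37% and 1.25%.

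GRP7 and GRP8 are close relatives, glycine-rich RNA-binding proteins under the circadian clock that lower their own transcripts by shifting the splicing of this intron. The intron of GRP7 had 5972, 2449 and 5871 counts in Col, against 2247, 1911 and 3759 in *brr2a*-2, on gene counts of 12659, 4413 and 9968 and of 2887, 2619 and 5279. Its share was therefore 47.2%, 55.5% and 58.9% in Col and 77.8%, 73.0% and 71.2% in *brr2a*-2, without overlap, although both counts were lower in the mutant. The log2 fold change was -0.18 (SE 0.45) with intron table scaling and 0.43 with gene table scaling, and it passed the test on neither. In GRP8 (annotated as CCR1) the share was 23.0%, 28.2% and 41.1% in Col and 57.3%, 37.0% and 53.1% in *brr2a*-2, with overlap and a log2 fold change of 0.03 (SE 0.44), or 0.66 with gene table scaling.

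The deepest row of the class belongs to AT7SL-1 (AT4G02970), a gene for the RNA of the signal recognition particle that guides ribosomes to membranes. Its annotated 868 bp intron had 26216, 22923 and 13761 counts in Col, against 2477, 3183 and 2380 in *brr2a*-2. In every library these were nearly the whole gene count, 99.4%, 99.6% and 99.5% in Col and 99.7%, 99.8% and 99.7% in *brr2a*-2, and reads of one row were therefore mostly reads of the other as well. Both rows were far lower in all mutant libraries, with a log2 fold change of -2.69 for the gene, and the ratio of intron to gene hardly moved (0.0022 with gene table scaling). The intron of AT5G61310, a subunit of cytochrome c oxidase, was of the same kind, with 94.0% to 96.3% of the gene counts in Col and 94.4% to 97.3% in *brr2a*-2, and all of it is exon in another annotated isoform.

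A few introns exceeded the counts of their gene, 9 in Col and 10 in *brr2a*-2, so not every intron read was counted for its gene. The intron of AT1G51402 held 1354, 1528 and 1335 counts in Col, against 1043, 892 and 869 in *brr2a*-2, with 31, 33 and 16 gene counts in Col and 4, 5 and 4 in *brr2a*-2. It overlaps an exon of AT1G51400, annotated as a protein of photosystem II, and since no source used here states whether counting used the strand, reads of overlapping genes cannot be told apart. Its log2 fold change of 0.93 (SE 0.36), or 1.58 with gene table scaling (adjusted p = 0.0375, edgeR's quasi-likelihood test), was computed against a gene row with few counts, and it was -1.04 without that correction. The intron of AT4G17098, a noncoding gene, overlaps an exon of AT4G17100 and had 656, 452 and 369 counts in Col, against 348, 257 and 248 in *brr2a*-2, with 6 to 25 gene counts per library. The other members with the highest shares in Col, AT1G06148, the miRNA precursor gene MIR398c and AT1G60525, also exceeded their gene and overlapped between genotypes.

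On the lower side no intron was called by edgeR's quasi-likelihood test on either scale. The smallest p belonged to AT4G17098, with a log2 fold change of -1.71 (SE 0.34, adjusted p = 0.0590) and -1.06 with gene table scaling, followed by AT1G70360, AT2G07698, AT5G64816 and AT4G05400 with -1.39, -1.22, -1.12 and -1.16, or -0.74, -0.58, -0.48 and -0.53 with gene table scaling. Part of the intron is exon in another isoform in AT4G17098 (38.5%), AT5G64816 (78.6%) and AT4G05400 (5.83%). These introns also overlap exons of other genes, AT4G17100, AT5G09275 and AT4G05155. The intron of AT1G70360, a gene for an F-box protein, is only 23 bp long and is exon in another isoform. It had 29, 17 and 15 counts in Col, against 9, 9 and 6 in *brr2a*-2, and its share overlapped at 31.5%, 33.3% and 25.9% against 15.5%, 30.0% and 13.6%. AT2G07698 encodes the alpha subunit of the mitochondrial ATP synthase within a copy of mitochondrial DNA on chromosome 2, and its gene counts of 66423 to 105359 may be shared with the mitochondrial gene, so its share of 0.0247%, 0.0255% and 0.0301% in Col and 0.0161%, 0.0169% and 0.0210% in *brr2a*-2 is uncertain. Of the 14 members with a lower share in every mutant library, 8 had fewer than 50 intron counts and 5 were tested.

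On the log2 scale the difference was smaller in longer introns, whereas in percentage points it was largest in the longest. With the members divided by length into 4 groups, in the shortest (21 to 112 bp, 394 introns) the median share was 2.75%, 2.42% and 2.38% in Col and 4.55%, 4.19% and 4.32% in *brr2a*-2, a difference of 0.79 on the log2 scale. It was 0.78 for 113 to 274 bp, 0.58 for 275 to 500 bp and 0.42 for 501 to 4209 bp. From the shortest to the longest group the mean of the library medians was 2.52%, 2.47%, 4.05% and 7.29% in Col. In *brr2a*-2 it was 4.35%, 4.21%, 5.99% and 9.73%. The share in Col was thus highest in the longest introns, and in percentage points the difference was largest there. All 4 groups were separated between genotypes (exact permutation test, two-sided p = 0.1 each, the smallest possible). Among tested members the median log2 fold change fell in the same order, from 0.12 to -0.01, -0.09 and -0.22, or 0.77, 0.65, 0.57 and 0.42 with gene table scaling. Across 750 tested introns with coordinates the Spearman correlation of log2 fold change and length was -0.28, and that with GC content -0.14; introns share libraries and length goes with GC content, so these are descriptions.

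The order by length was also seen in genes with more introns, at somewhat lower values. At the same lengths the log2 difference was 0.75, 0.57, 0.46 and 0.38 for genes with 2 to 14 introns and 0.70, 0.49, 0.34 and 0.26 for genes with 15 or more. The single-intron class exceeded genes with 2 to 14 introns by 0.04 in the shortest group, with separated libraries (exact permutation test, p = 0.1), and by 0.21, 0.12 and 0.04 in the others, with overlapping ones (p = 0.2, 0.2 and 0.5). It exceeded genes with 15 or more introns by 0.09, 0.29, 0.23 and 0.16 (exact permutation test, p = 0.1, 0.2, 0.1 and 0.1). The introns of the class were longer, with a median of 274 bp against 105 and 110 bp in the others.

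**Figure D4:**
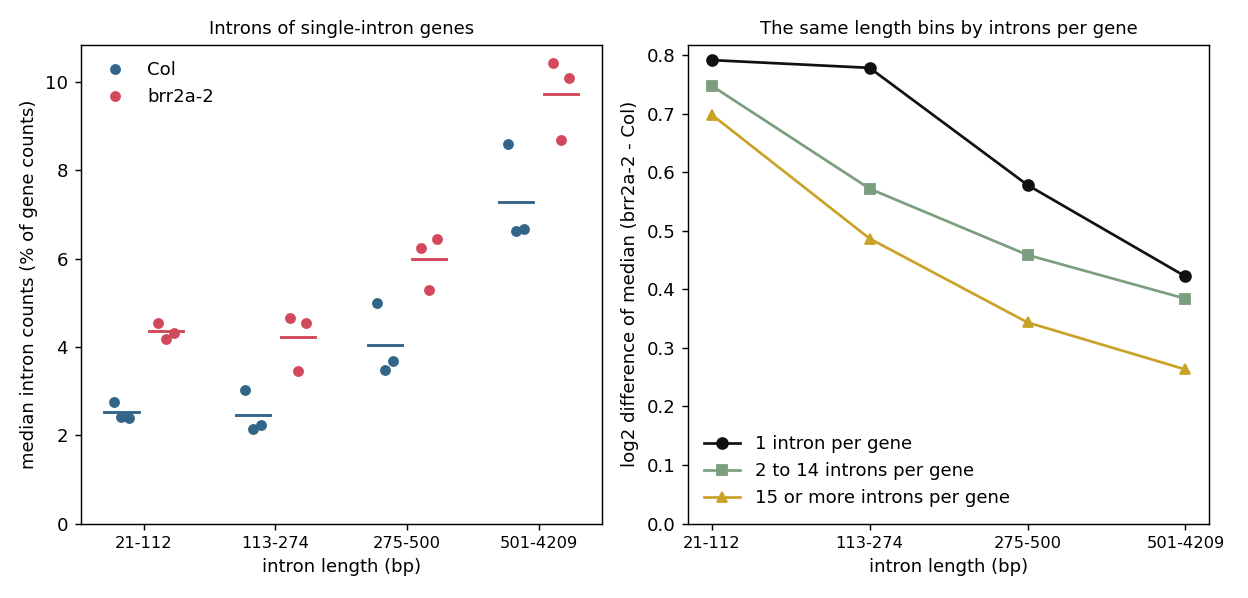
Left, median intron counts in percent of gene counts of the members in 4 length bins (bp), 1 point per library and a bar at the mean of 3 libraries; the *brr2a*-2 libraries lie above the Col libraries in each bin. Right, the log2 difference of the median between genotypes in the same bins for genes with 1, 2 to 14 and 15 or more introns, which falls from 0.79, 0.75 and 0.70 in the shortest to 0.42, 0.38 and 0.26 in the longest.

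The median share was higher in *brr2a*-2 at every position in the transcript. Coordinates were known for 1558 members, and 270 of these introns (17.3%) lay in the 5' UTR, against 4.82% and 1.73% in the classes with more introns. Of the others, 1188 lay between coding exons, 74 in the 3' UTR and 26 in noncoding genes. By the annotation used, the 1188 include the intron of AT7SL-1, although its product is an RNA. The median share went from 3.42% to 5.51% in 5' UTR introns, from 3.72% to 5.93% in coding introns, from 2.89% to 4.22% in 3' UTR introns and from 32.3% to 41.4% in introns of noncoding genes, each without overlap of the libraries (exact permutation test, p = 0.1). Separated upward were 76 of the 270, 293 of the 1188, 23 of the 74 and 6 of the 26, or 28.1%, 24.7%, 31.1% and 23.1%. This stands beside 25.5% of all members and 21.8% of all introns. In 243 members part of the intron is exon in another annotated isoform, and there the median was 8.15%, 5.63% and 5.79% in Col and 8.14%, 7.28% and 8.57% in *brr2a*-2, with overlapping libraries (exact permutation test, p = 0.3), against means of 3.47% to 5.52% in the 1315 others. In 110 members the intron overlaps an exon of another gene, and there it went from 9.93% to 12.3%.

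Splice sites were nearly all of the common kind. Of the 1558 introns, 1545 began with GT and ended with AG, 12 began with GC and ended with AG, and none began with AT and ended with AC. In the 12 with a GC start the median share was 4.89% in Col and 4.39% in *brr2a*-2, with overlapping libraries, and 2 of them were separated upward. The start GTATCC, typical of introns removed by the minor spliceosome, which uses BRR2 as well, was found in 4 members (0.257%, against 0.404% and 0.448% in the other classes). Their first 12 bases are shown with the 6 matching ones in capitals, at chr1:25785824-25785835 (plus strand), chr2:1704902-1704913 (plus strand), chr2:2259149-2259160 (minus strand) and chr4:10472508-10472519 (minus strand).
AT1G68680: GTATCCtcttta
AT2G04850: GTATCCaaattc
AT2G05910: GTATCCttttaa
AT4G19150: GTATCCtttctt
None of the 4 was separated between genotypes. The introns of AT1G68680 and AT4G19150 were tested, and their shares were 37.4%, 41.8% and 46.3% against 62.3%, 45.5% and 49.3%, and 6.14%, 4.91% and 9.84% against 10.8%, 8.96% and 8.17%. A match to these letters is a description and does not make an intron one of that type.

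Other gene families were described by the same counts. Of 16 B-box factors, among them CONSTANS and its relatives of flowering time, 7 were members, and 3 of these (COL3, COL5 and BBX28) were separated upward. Of 4 CDF factors, repressors of CONSTANS, 3 were members, of which CDF2 was separated downward on 19 intron counts. Of 6 ubiquitin genes 3 were members, with UBQ3 separated upward. Of the COL3 intron 83.5% is exon in another annotated isoform, as is the whole UBQ3 intron. Both members among 4 lipid transfer proteins, LTP1 (annotated as LP1) and LTP2, were separated upward. The intron of LTP2 had 1, 0 and 1 counts in Col, against 5, 5 and 3 in *brr2a*-2. It met the minimum intron count for members only through the mutant libraries, where it is high, so its separation is a description. By words in the annotation, 7 of 20 cytochrome P450 genes, 14 of 67 kinases, 25 of 94 transcription factors and 4 of 16 glycosyltransferases were separated upward and 0, 1, 1 and 0 downward, that is 35.0%, 20.9%, 26.6% and 25% upward beside 25.5% of all members and 21.8% of all introns. Ribosomal proteins had 4 of 9 upward and 1 downward. Among those upward, AT2G18400 had 3, 1 and 1 intron counts in Col, against 5, 3 and 8 in *brr2a*-2. It met the minimum intron count only through the mutant libraries. The downward one, AT4G25890, had 14, 5 and 6 in Col, against 3, 1 and 0 in *brr2a*-2, and met it only through Col. Both separations are descriptions. With gene table scaling the calls in these lists were RPL4 among the ribosomal proteins, CLV1 (through the mutant libraries alone) among the kinases, COR15B and MT1C, and 0 introns in the others (edgeR's quasi-likelihood test). Of 22 tested introns of the lists given by gene ID, 11 had a log2 fold change above 0 with intron table scaling and 19 with gene table scaling.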

How the data were processed

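Ribosome-depleted RNA of 3 Col and 3 brr2a-2 samples was sequenced. Per the labels and the study's methods, the authors trimmed reads with Trimmomatic 0.32, aligned them with TopHat2 to TAIR10 and counted them with HTSeq; the deposited tables hold raw counts per gene and per intron of the first isoform, without the batch correction used in the study. The strand setting of the counting was not given in the sources used here. Where the sources differ (rosette leaves or seedlings), both are named.

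Each intron was set over its gene in each library. Intron counts were tested with edgeR 4.0.16 (R 4.3.3; quasi-likelihood, TMM, filterByExpr with a minimum of 10 counts, Benjamini-Hochberg adjustment over all introns tested), with the log2 fold change of the gene (prior count 2) in the offset of the brr2a-2 libraries. The uncertainty of the gene change is not carried over, so adjusted p-values are somewhat too small; the code was tested on simulated data. Introns with an adjusted p below 0.05 and a log2 fold change of 1 or more in either direction were called. Library medians and pooled shares were compared with two-sided exact permutation tests, which cannot go below 0.1 and were not adjusted. Alternatives were DESeq2 1.42.0, other normalizations, filters and gene corrections, each library left out, and, added after the data were seen, gene table scaling (effective gene library sizes). P-values measure the spread between samples that the labels call biological replicates.

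Named were all members called (the 10 of largest size where more were called), the 5 with the smallest p in each direction, the 5 with the highest share in Col among those tested, the 5 with the most counts and the tested members of the lists given by gene ID; the photosynthesis list, the calls with gene table scaling, the untested list members and the introns that start with GTATCC were named after their values were seen. Members and lists were chosen with earlier results of these data known. Coordinates, sequences and symbols are from RefSeq TAIR10.1; 1558 members had coordinates, and 42 had another number of introns in that annotation. Chromosome 3 entered the fit and the adjustment but not the members.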

Additional observations from a re-analysis of the deposited data

How the results depend on the processing

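The median share stayed higher in brr2a-2 under all 9 alternatives, by 1.91 to 2.45 percentage points when a library was left out. The pooled difference ranged from -0.627 to -0.156 with a library left out and turned to 1.19 without the 10 introns of most counts, as did the log2 difference to genes with 15 or more introns (0.0249; -0.665 to -0.544 with a library left out). The count of members called higher (1) became 2 with DESeq2 (0.259% of members, 0.476% of all tested introns), 53 with the gene count of each library as offset (6.86% and 6.80%), 22 with gene library sizes, 0 without chromosome 3 and 0 to 1 with a library left out. The count called lower (0) became 1 with DESeq2, 3 with no gene correction and 0 to 1 with a library left out. With gene table scaling, 22 became 4 without chromosome 3 and 1 to 21 with a library left out. Log2 fold changes reversed for PSB28 without Col 2 (-0.35 to 1.18 with a library left out), GRP7 with the per-library offset (0.46) and gene scaling (0.43), GRP8 with no gene correction (-0.70), without Col 1 (-0.19) and without brr2a-2 3 (-0.11; up to 0.32 with a library left out), AT7SL-1 with the per-library offset (0.0021) and gene scaling (0.0022), COR15B (-1.10) and AT1G51402 (-1.04) with no gene correction; the causes were not tested. Whether replicate numbers pair the samples could not be told. Deviations of same-numbered libraries correlated at -0.02, 0.26 and 0.11 over 17214 introns, and those of differently numbered libraries at -0.23 to 0.09. With a replicate block 1 member was called, or 32 with gene table scaling, 21 of them shared with the 22.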
